A study of Mus musculus with 12 samples.

Results

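The genes described here are 38 genes of protein folding and protein quality control in the endoplasmic reticulum (ER), taken as a fixed list of gene symbols from a table of 48795 genes. All 38 were found by symbol, and all 38 passed the filter on low counts that left 13812 genes for testing. They comprise 11 genes for the ER Hsp70 and Hsp90 chaperones and their partners, 2 lectin chaperones, 7 disulfide isomerases, 8 genes of ER-associated degradation, 6 subunits of the protein-conducting channel and its associated complex, and 4 genes for the stress sensors and their transcription factor Xbp1.

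RNA was sequenced from the livers of 12 female mice aged 4 months, either wild type for the neurotensin gene (Nts+/+) or lacking it throughout the body (Nts-/-), and either fed ad libitum or fasted for 22 h. Each of the 4 groups held 3 mice, each mouse gave 1 library, and all libraries carried the batch label 2015. Per the study's methods the mice were littermates bred from heterozygous parents on normal chow. Neurotensin is a gut peptide released by fat intake. The libraries held between 21999647 and 45273069 estimated gene counts. Values below are CPM, counts scaled to a common library size by trimmed means (TMM), and 3 counts, the limit that a count of 0 allows, correspond to 0.0663 to 0.136 CPM, for counting error only.

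The targeted gene went against its labels. Nts had 0 counts in all 6 livers labelled Nts+/+, whereas the fed livers labelled Nts-/- had 46, 40 and 15 counts and the fasted ones 12, 4 and 18. The genotypes below are therefore those of the labels. Exchanged labels and reads from a remaining part of the targeted allele cannot be told apart here, and every difference between genotypes below would change sign if the labels were exchanged. Genes known to respond to feeding differed by the labelled state. Of these, 11 of 14 fasting-induced genes were higher in fasted livers, including the fatty acid hydroxylase Cyp4a14 with a log2 fold change of 3.50, and 12 of 13 feeding-induced genes were lower, including the sterol-responsive gene Insig1 with a log2 fold change of -3.38. The sum of 12 hepatocyte markers lay between 146000 and 182000 CPM in every liver.

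The ER folds and modifies proteins that enter the secretory pathway, and the hepatocyte, which secretes most plasma proteins, is rich in it. When unfolded proteins build up, the sensors encoded by Ern1 (IRE1), Atf6 and Eif2ak3 (PERK) start the unfolded protein response, in which the transcription factors XBP1 and ATF6 raise the genes for chaperones and degradation. These factors are known to act through short promoter elements, the ER stress response element ERSE (CCAAT, 9 bases, CCACG), its relative ERSE-II (ATTGG, 1 base, CCACG) and the element UPRE (TGACGTGG).

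Promoter sequences are shown first because the elements are how the response is known to reach its target genes. Some members with ERSE or ERSE-II, such as Derl3, Herpud1 and Creld2, varied widely between mice, and others, such as Canx, Hsp90b1 and Dnajc3, did not. RefSeq promoter windows of the mouse build GRCm38.p6, which run from 250 bases before to 50 after the start of a gene, were matched by symbol for 31 of the 38 members. Both strands were searched. ERSE was in the windows of 9 members (29.0% of 31), Hspa5, Hsp90b1, Dnajc3, Creld2, Calr, Canx, Pdia6, Syvn1 and Derl3, and in 0.137% of 27025 genes with a window. ERSE-II was in 2 members, Herpud1 and Dnajb11, and in 0.0444% of genes. UPRE was in 2 members, Txndc5 and Txndc11, and in 0.714% of genes. No member held ERSE and ERSE-II together. The members were listed as genes of ER folding and of this response, so these shares describe the list and are not a test of enrichment. In the sites below the element is in capitals, with 8 bases on each side, 5′ to 3′ on the strand of the gene. Those of Hspa5, Pdia6 and the first of the pair in Hsp90b1 read in the direction of the gene, and those of Creld2, Derl3, Calr and the second in Hsp90b1 read against it. Herpud1 has the shorter ERSE-II, and Txndc11 has UPRE. Txndc11 rose with fasting, whereas Txndc5, the other member with UPRE, did not pass the test, and its site is not printed.
Hspa5 (chr2:34772017-34772051, plus strand): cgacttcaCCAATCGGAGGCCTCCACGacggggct
Hsp90b1, first (chr10:86705630-86705664, minus strand): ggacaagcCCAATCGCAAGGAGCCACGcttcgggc
Hsp90b1, second (chr10:86705525-86705559, minus strand): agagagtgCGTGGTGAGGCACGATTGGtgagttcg
Creld2 (chr15:88819512-88819546, plus strand): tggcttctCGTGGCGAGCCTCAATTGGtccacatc
Calr (chr8:84847067-84847101, minus strand): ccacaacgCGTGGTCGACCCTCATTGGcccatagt
Derl3 (chr10:75893234-75893268, plus strand): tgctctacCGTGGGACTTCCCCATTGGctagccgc
Pdia6 (chr12:17266483-17266517, plus strand): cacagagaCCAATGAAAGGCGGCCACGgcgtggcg
Herpud1 (chr8:94386369-94386395, plus strand): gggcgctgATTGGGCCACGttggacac
Txndc11 (chr16:11134619-11134642, minus strand): agtgtggcTGACGTGGagagtccg

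The sites printed lie upstream of the annotated start, whereas the ERSE-II of Dnajb11, which is not printed, lies 7 to 17 bases after it. The element begins 65 bases before it in Hspa5, 126 in Creld2, 162 in Calr, 156 in Derl3, 98 in Pdia6 and 52 in Herpud1. The 2 elements of Hsp90b1 begin 212 and 107 bases before the start, and the UPRE of Txndc11 begins 102 bases before it. A match is a match of letters, and binding was not measured here.

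The members spanned a wide range of levels. Per kilobase of the canonical transcript, the highest median level in fed livers was that of P4hb, the classical protein disulfide isomerase, at 480 CPM per kb. It was followed by Calr (calreticulin) at 343, Hsp90b1 (the ER Hsp90, GRP94) at 261, Hspa5 (BiP, the ER Hsp70) at 139 and Pdia3 (ERp57, the isomerase that works with the lectin chaperones) at 137 CPM per kb. Xbp1 stood at 96.6 CPM per kb, well above the 3 sensors, whose medians were 7.77 for Atf6, 7.15 for Ern1 and 2.97 for Eif2ak3. The fed ranges of Hspa5, 102 to 194 CPM per kb, held the median of Pdia3, so the order of these neighbours was within the spread between mice.

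Fasting changed some members and left the list as a whole without a common direction. In the contrast of fasted against fed livers averaged over the labelled genotypes, 9 of 38 members (23.7%) passed an adjusted *p* of 0.05 in edgeR's quasi-likelihood test, against 32.8% of all genes tested. Of these, 3 rose (7.89%, against 16.0% of all genes) and 6 fell (15.8%, against 16.8%). The members' median log2 fold change was -0.000798, with 19 of 38 estimates above 0, and that of all genes was -0.00712. Within Nts+/+ livers 5 members passed (13.2%, against 18.1% of all genes), 2 of them higher (8.91% of all genes were) and 3 lower (9.19%). Within Nts-/- livers 4 members passed (10.5%, against 16.8%), 1 of them higher (7.7% of all genes) and 3 lower (9.14%). No member was higher in all 6 fasted livers than in all 6 fed ones, as 8.05% of all genes were, and 3 members, Edem1, Edem2 and Sec61b, were lower in all 6, as 7.83% of all genes were.

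**Figure D1:**
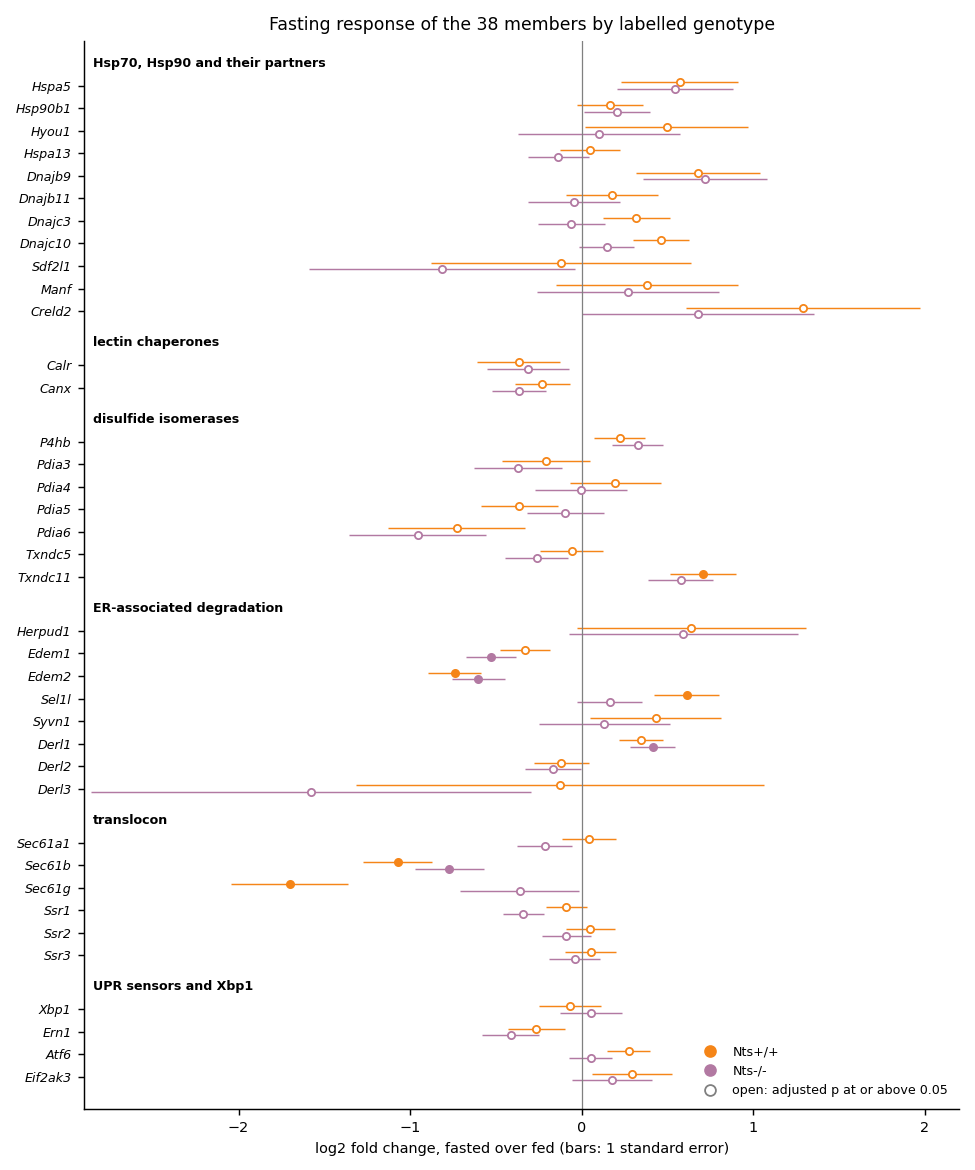
Log2 fold change of fasted over fed livers for each of the 38 members, grouped by role, in mice labelled Nts+/+ (orange) and Nts-/- (purple), with bars of 1 standard error from the edgeR fit and filled points for an adjusted *p* under 0.05. The filled points are Sec61b and Edem2 in both genotypes, Sec61g, Txndc11 and Sel1l in Nts+/+, and Edem1 and Derl1 in Nts-/-, and the widest bars are those of Derl3.

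The largest falls past the threshold were in the channel through which new proteins enter the ER. Sec61b, the beta subunit of the Sec61 channel, stood at 42.4, 45.4 and 47.0 CPM in fed and 21.3, 16.4 and 26.4 CPM in fasted Nts+/+ livers, and at 36.9, 35.6 and 55.6 CPM in fed and 22.5, 22.0 and 30.3 CPM in fasted Nts-/- livers. Every fasted liver was below every fed one. The log2 fold change was -0.92 (SE 0.14, adjusted *p* = 0.000325), 1.90-fold lower, with -1.07 (adjusted *p* = 0.00334) in Nts+/+ and -0.77 (adjusted *p* = 0.0186) in Nts-/- livers. The call in Nts-/- livers was lost without mouse 319 (adjusted *p* = 0.0603), 284 (0.0788) or 290 (0.0795).

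Sec61g, the gamma subunit of the channel, was low throughout and passed the test in Nts+/+ livers. Fed Nts+/+ livers had 11.6, 11.0 and 7.05 CPM and fasted ones 4.18, 2.55 and 2.50 CPM, a log2 fold change of -1.70 (SE 0.34, adjusted *p* = 0.00495) between groups that did not overlap. Nts-/- livers had 3.52, 2.17 and 4.83 CPM fed and 3.62, 1.60 and 2.93 CPM fasted, which overlapped, with a log2 fold change of -0.36 (SE 0.35, adjusted *p* = 0.516). The difference between these responses, 1.34 (SE 0.48), had an unadjusted *p* of 0.0158 and an adjusted *p* of 0.897 in edgeR's test. Sec61g had estimated counts that were not whole in all 12 mice, so some of its reads were shared with other loci and its values are uncertain.

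The other 4 members of this class did not pass the test. Sec61a1, the pore-forming subunit, had a log2 fold change of -0.09 (adjusted *p* = 0.59). Ssr1, Ssr2 and Ssr3, subunits of the translocon-associated complex, had values of -0.22 (adjusted *p* = 0.065), -0.02 (0.903) and 0.01 (0.973) in the same test. The level of Sec61a1 lay between 127 and 192 CPM in fed and between 127 and 163 CPM in fasted livers.

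Among the genes of ER-associated degradation, which extracts misfolded proteins for destruction in the cytosol, members moved in opposite directions. Edem2, which starts the trimming of mannose that marks a glycoprotein for degradation, had 45.7, 49.0 and 46.6 CPM in fed and 25.9, 25.2 and 33.4 CPM in fasted Nts+/+ livers. In Nts-/- livers it had 48.0, 37.6 and 53.7 CPM fed and 30.1, 26.9 and 34.7 CPM fasted. No fasted liver reached the lowest fed one, and the log2 fold change was -0.67 (SE 0.11, adjusted *p* = 0.000398), 1.59-fold lower. It was -0.74 (adjusted *p* = 0.00526) in Nts+/+ and -0.60 (adjusted *p* = 0.0158) in Nts-/- livers, and the latter call was lost without mouse 277 (adjusted *p* = 0.0587), 284 (0.057) or 290 (0.0752).

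Edem1, a related mannosidase-like protein that hands substrates to the degradation machinery, had 156, 166 and 164 CPM in fed and 124, 113 and 149 CPM in fasted Nts+/+ livers, and 174, 217 and 179 CPM in fed and 127, 114 and 153 CPM in fasted Nts-/- livers. The 6 fed and 6 fasted livers again did not overlap. The log2 fold change was -0.43 (SE 0.10, adjusted *p* = 0.00585). It was -0.53 (adjusted *p* = 0.0241) in Nts-/- and -0.33 (adjusted *p* = 0.131) in Nts+/+ livers, and the difference between these, -0.20 (SE 0.21), had an adjusted *p* of 0.92. The call in Nts-/- livers was lost without mouse 303 (adjusted *p* = 0.113), 284 (0.0871) or 290 (0.106).

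Derl1, a derlin of the channel by which proteins leave the ER, rose. It had 96.5, 106 and 121 CPM in fed and 120, 137 and 154 CPM in fasted Nts+/+ livers, and 119, 107 and 115 CPM in fed and 141, 152 and 161 CPM in fasted Nts-/- livers. The groups overlapped only through the fed mouse with 121 CPM and the fasted one with 120 CPM. With fasting its log2 fold change was 0.38 (SE 0.09, adjusted *p* = 0.00594), 1.30-fold higher. The call within Nts-/- livers (0.41, adjusted *p* = 0.0418) was lost under 11 of 19 alternatives, among them the omission of any 1 of the 6 Nts-/- mice (adjusted *p* up to 0.126).

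Sel1l, the adaptor of the ubiquitin ligase Hrd1, had 112, 137 and 123 CPM in fed and 157, 156 and 255 CPM in fasted Nts+/+ livers, and 140, 125 and 131 CPM in fed and 161, 116 and 166 CPM in fasted Nts-/- livers. Its log2 fold change was 0.39 (SE 0.14, adjusted *p* = 0.0421). The call was lost under 9 of 18 alternatives, and without the fasted Nts+/+ mouse 322 the value was 0.25 (adjusted *p* = 0.098). In Nts+/+ livers alone it was 0.61 (adjusted *p* = 0.0414), and 0.34 (adjusted *p* = 0.177) without that mouse. Syvn1, which encodes Hrd1 itself, had a log2 fold change of 0.28 (adjusted *p* = 0.465), Derl2 of -0.14 (0.366), Derl3 of -0.85 (0.497) and Herpud1, a scaffold of the same complex, of 0.62 (0.357), none past the threshold. Without mouse 322 Derl3 stood at -2.19 (adjusted *p* = 0.0519), Herpud1 at 0.20 (0.762) and Syvn1 at 0.04 (0.91). Derl2 had estimated counts that were not whole in 11 mice.

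**Figure D2:**
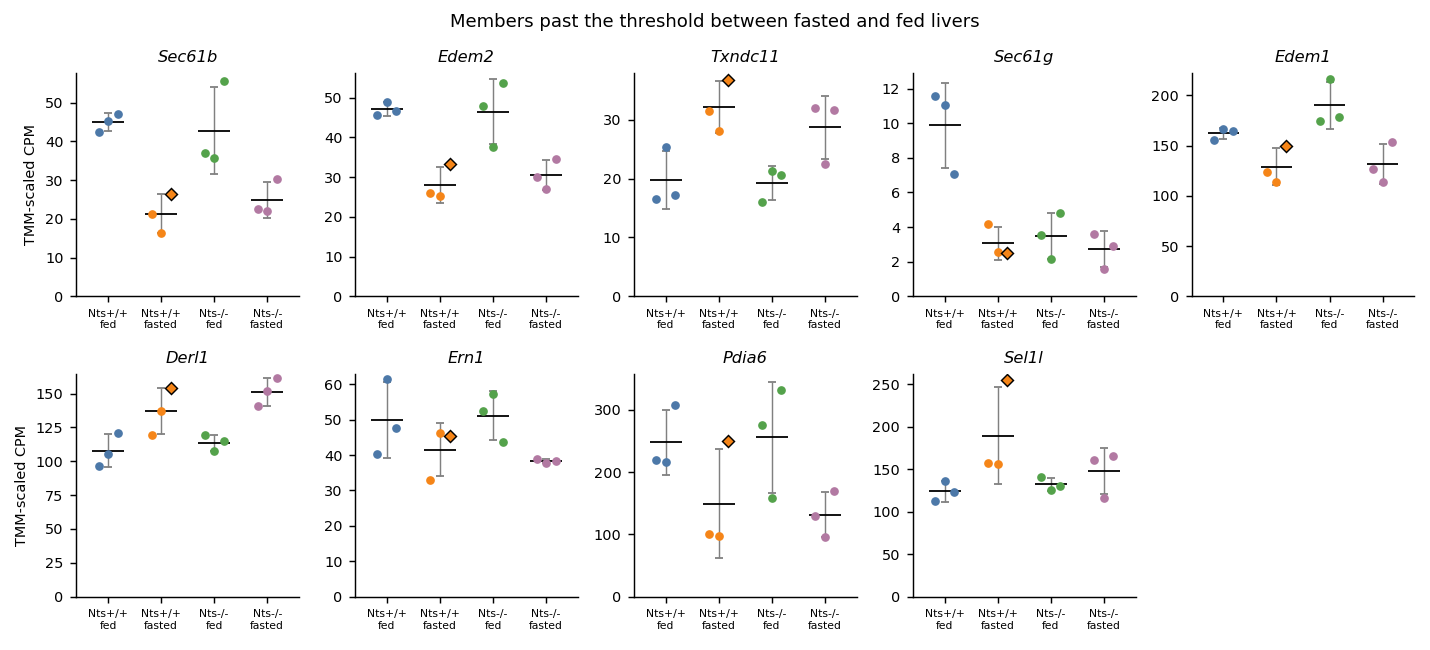
TMM-scaled CPM (linear axes from 0) of the 9 members past the threshold in the averaged fasting contrast, with 1 point for each mouse, a black line for the mean and a grey bar of 1 SD in each of the 4 groups of 3, and a diamond for mouse 322. Fasted and fed livers do not overlap for Sec61b, Edem2 and Edem1, and the diamond is the highest of its group for 7 of the 9 genes.

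Among the disulfide isomerases, which form and rearrange disulfide bonds, 1 member rose and 1 fell. Txndc11, a thioredoxin-domain partner of the EDEM proteins, had 16.6, 25.4 and 17.2 CPM in fed and 31.6, 28.1 and 36.9 CPM in fasted Nts+/+ livers, and 16.0, 21.4 and 20.6 CPM in fed and 32.1, 22.5 and 31.6 CPM in fasted Nts-/- livers. Within each genotype every fasted liver was above every fed one. Its log2 fold change was 0.64 (SE 0.14, adjusted *p* = 0.00272), 1.56-fold higher. It was 0.71 (adjusted *p* = 0.0219) in Nts+/+ livers, a call lost without mouse 254 (adjusted *p* = 0.106), 323 (0.0693) or 322 (0.0711), and 0.58 (adjusted *p* = 0.0542) in Nts-/- livers.

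Pdia6, an isomerase that binds BiP and carries ERSE, had 220, 216 and 308 CPM in fed and 99.9, 97.8 and 250 CPM in fasted Nts+/+ livers, and 276, 159 and 333 CPM in fed and 130, 96.3 and 170 CPM in fasted Nts-/- livers. All but the mouse with 250 CPM and the one with 170 CPM were below every fed liver. Its log2 fold change was -0.84 (SE 0.28, adjusted *p* = 0.0418), and the call was lost under 10 of 18 alternatives, with an adjusted *p* of up to 0.126. Without mouse 322, the fasted liver at 250 CPM, it was -1.14 (adjusted *p* = 0.0020).

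The other isomerases did not pass. P4hb had a log2 fold change of 0.27 (SE 0.11, adjusted *p* = 0.0623), with 1296, 1436 and 1566 CPM in fed and 1843, 1527 and 1635 CPM in fasted Nts+/+ livers, and 1390, 1236 and 1434 CPM in fed and 1627, 1482 and 1976 CPM in fasted Nts-/- livers. Pdia3 had -0.29 (adjusted *p* = 0.239), Pdia4 (ERp72) 0.10 (0.734), Pdia5 -0.23 (0.29) and Txndc5 (ERp46) -0.16 (0.367). The 2 lectin chaperones, which hold glycoproteins during folding, had negative estimates. Calr had -0.34 (SE 0.17, adjusted *p* = 0.144) and Canx (calnexin) -0.30 (SE 0.11, adjusted *p* = 0.0573). Leaving out mouse 322 brought Calr to -0.46 (adjusted *p* = 0.0448), Canx to -0.38 (adjusted *p* = 0.0157) and Pdia3 to -0.46 (adjusted *p* = 0.0353). Calr (adjusted *p* = 0.0213) and Canx also passed without mouse 295. Mouse 322 was singled out for its high values among the members, so lower fasted estimates without it follow from that choice. The same applies to Pdia6 above and Sdf2l1 below, and these calls are not independent support for a fall.

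None of the 11 genes of the Hsp70 and Hsp90 class passed edgeR's test. Of their estimates 9 of 11 were above 0, with a median log2 fold change of 0.298, and without mouse 322 this was 6 of 11, with a median of 0.0198. Without mouse 319 it was 9 of 11, with a median of 0.328, and without mouse 290 it was 10 of 11, with 0.286. DESeq2 called 3 of them higher in fasted livers, Hspa5 (adjusted *p* = 0.0321), Dnajb9 (adjusted *p* = 0.00791) and Dnajc10 (adjusted *p* = 0.0459). The share of all genes that DESeq2 called is not given here. Hspa5 had 633, 783 and 729 CPM in fed and 762, 732 and 1690 CPM in fasted Nts+/+ livers. In Nts-/- livers it had 503, 645 and 962 CPM fed and 1187, 709 and 1183 CPM fasted. Of the fasted Nts+/+ livers only that of mouse 322, at 1690 CPM, was above the fed range, and the others lay within it. Among fasted Nts-/- livers the one with 709 CPM lay within the fed range and the others above it. The log2 fold change of Hspa5 was 0.56 (SE 0.24, adjusted *p* = 0.0974) and fell to 0.31 (adjusted *p* = 0.217) without mouse 322. Without the fed Nts-/- mouse 319 it passed edgeR's test (adjusted *p* = 0.0443).

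The cofactors of BiP differed in their spread between mice, from 0.212 for Dnajc10 to 0.622 for Hyou1 as a standard deviation of log2 values. Dnajb9 (ERdj4), a J-domain cofactor of BiP, had a log2 fold change of 0.70 (SE 0.26, adjusted *p* = 0.0602), with 33.7 to 70.2 CPM in fed and 55.8 to 131.5 CPM in fasted livers. Dnajc10, a J-domain reductase, had 0.30 (adjusted *p* = 0.0579), Dnajc3 (p58IPK) 0.13 (0.514), Dnajb11 (ERdj3) 0.07 (0.823) and Hyou1 (GRP170), the nucleotide exchange factor of BiP, 0.30 (0.537). Hsp90b1 had 0.18 (adjusted *p* = 0.327) and Hspa13, a truncated Hsp70, -0.04 (0.816). Creld2 and Manf, secreted proteins induced by ER stress, had 0.98 (SE 0.48, adjusted *p* = 0.154) and 0.33 (0.548), and Sdf2l1, a partner of ERdj3, -0.47 (0.552). Without mouse 322 Creld2 stood at 0.44, Manf at -0.05, Hyou1 at -0.04 and Dnajb11 at -0.12, none past the threshold, and Sdf2l1 at -1.18 (adjusted *p* = 0.0363). Other omissions brought rises past the threshold. Dnajb9 passed without mouse 257, 265 (adjusted *p* = 0.0334) or 290, and Dnajc10 without mouse 323 (adjusted *p* = 0.0107) or 265. The estimated counts of Hsp90b1 were not whole in 12 mice and those of Manf in 8.

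Of the stress sensors, Ern1 fell slightly. It had 40.4, 61.6 and 47.8 CPM in fed and 33.0, 46.4 and 45.3 CPM in fasted Nts+/+ livers, and 52.4, 57.3 and 43.6 CPM in fed and 38.8, 37.8 and 38.4 CPM in fasted Nts-/- livers. Fed and fasted Nts-/- livers did not overlap, whereas the Nts+/+ ones did. The log2 fold change was -0.34 (SE 0.12, adjusted *p* = 0.0412), and the call was lost under 8 of 18 alternatives, each the omission of 1 mouse (adjusted *p* up to 0.112 without mouse 257).

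Xbp1 did not pass the test. It had 167, 201 and 225 CPM in fed and 170, 174 and 220 CPM in fasted Nts+/+ livers, and 155, 179 and 218 CPM in fed and 218, 149 and 206 CPM in fasted Nts-/- livers, with a log2 fold change of -0.0071 (SE 0.13, adjusted *p* = 0.973). These values are for the whole gene and do not separate the spliced form, which encodes the active factor, from the unspliced one. Atf6 had 54.7, 69.9 and 60.1 CPM in fed and 76.5, 74.9 and 71.7 CPM in fasted Nts+/+ livers, and 66.5, 57.1 and 51.5 CPM in fed and 57.1, 60.9 and 63.3 CPM in fasted Nts-/- livers. Its log2 fold change was 0.16 (adjusted *p* = 0.178). Eif2ak3 lay between 10.7 and 20.3 CPM in fed and between 11.7 and 23.1 CPM in fasted livers, with a log2 fold change of 0.24 (adjusted *p* = 0.301).

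Several members differed more between mice of the same group than between groups. The pooled standard deviation of log2(CPM + 0.5) between mice of a group had a median of 0.266 over the 38 members and 0.213 over all genes tested. For the 10057 tested genes within the members' range of mean levels it was 0.193. By role the median was 0.472 for the Hsp70 and Hsp90 class, 0.318 for the isomerases, 0.266 for the lectin chaperones, 0.238 for degradation, 0.235 for the sensors with Xbp1 and 0.188 for the translocon. The widest were Derl3 (1.32), Sdf2l1 (0.942), Herpud1 (0.858), Creld2 (0.828), Manf (0.691) and Hyou1 (0.622), and the narrowest were Ssr1 (0.12), Atf6 (0.136) and Derl1 (0.137). The 11 members with ERSE or ERSE-II had a median of 0.472, and the 20 with a window and neither element had 0.252. Members with no window matched by symbol, among them Manf and Hyou1, are in neither set. The median fasting log2 fold change of these sets was 0.128 (range -0.853 to 0.982) and -0.152 (range -1.03 to 0.697), so they overlapped widely. This is a description of these libraries, and no test was made of it.

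**Figure D3:**
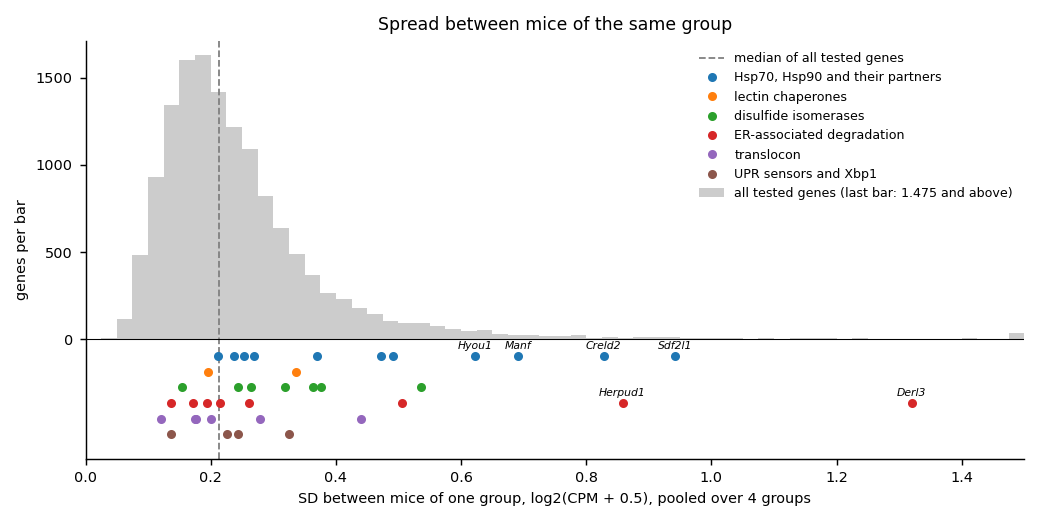
Pooled standard deviation of log2(CPM + 0.5) between mice of the same group, as a histogram of all 13812 tested genes (grey, with a dashed line at their median of 0.213) and as points for the 38 members, 1 row below the axis for each role. Derl3 lies at 1.32, and Sdf2l1, Herpud1, Creld2, Manf and Hyou1 lie between 0.622 and 0.942.

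Derl3, Sdf2l1, Herpud1, Creld2, Manf and Hyou1 were each the highest of all 12 livers in mouse 322, while their order among the other mice differed. Creld2 had 25.5, 29.3 and 119 CPM in fasted Nts+/+ livers, with the high value in mouse 322, and 20.5, 28.8 and 22.0 CPM in fed ones. In Nts-/- livers it had 16.2, 17.4 and 49.8 CPM fed, with the high value in mouse 319, and 51.4, 24.9 and 56.3 CPM fasted, with the low value in mouse 290. Mouse 322 was thus 4.34 times the mean of its group mates. Its fasting log2 fold change in Nts+/+ livers was 1.29 with mouse 322 and 0.21 without it.

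Manf was also the highest of its group in mice 322 and 319 and the lowest in mouse 290. It had 71.7, 94.6 and 57.8 CPM in fed and 44.4, 70.6 and 176 CPM in fasted Nts+/+ livers, and 45.5, 56.1 and 106 CPM in fed and 102, 48.0 and 100.2 CPM in fasted Nts-/- livers. Herpud1 had 272, 385 and 162 CPM in fed and 168, 305 and 802 CPM in fasted Nts+/+ livers, and 177, 118 and 415 CPM in fed and 325, 219 and 526 CPM in fasted Nts-/- livers. For both genes the highest liver of all 12 was that of mouse 322.

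Derl3, a derlin best known from secretory cells, was the lowest member and the most variable. It had 1.18, 2.28 and 7.76 CPM in fed and 0.285, 0.727 and 8.84 CPM in fasted Nts+/+ livers, and 5.00, 0.579 and 4.47 CPM in fed and 1.51, 0.563 and 1.28 CPM in fasted Nts-/- livers. Sdf2l1 had 15.4, 25.7 and 23.5 CPM in fed and 7.21, 7.40 and 44.3 CPM in fasted Nts+/+ livers, and 20.03, 9.27 and 28.6 CPM in fed and 16.3, 5.15 and 11.4 CPM in fasted Nts-/- livers. In the fasted Nts+/+ group mouse 322 exceeded the mean of its mates 17.5 times for Derl3 and 6.06 times for Sdf2l1, against 2.26 times for Hspa5.

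**Figure D4:**
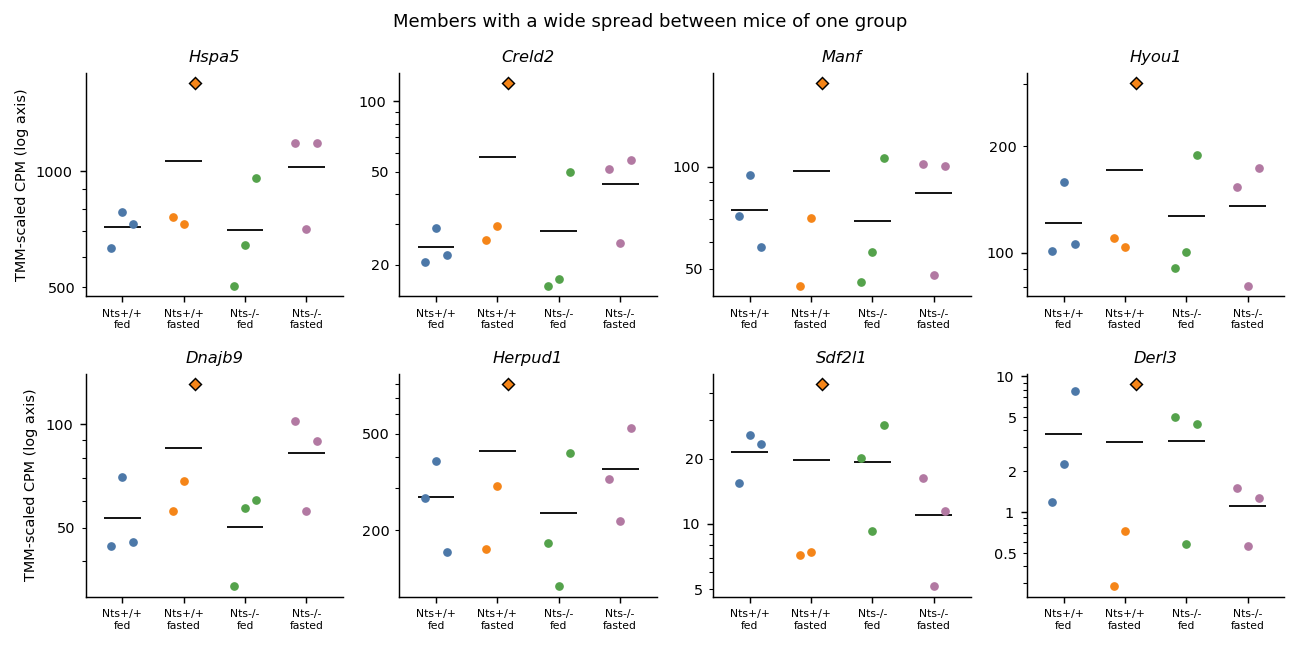
TMM-scaled CPM on log axes of Hspa5 and 7 members with a wide spread, with 1 point for each mouse, a line for the arithmetic mean of each group of 3, and a diamond for mouse 322. The diamond is the highest point of all 12 in each panel drawn. Pdia6 (0.536, highest in mouse 319) and Syvn1 (0.506) had a wider spread than Dnajb9 (0.492) and are not drawn.

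Over the whole list, mouse 322 was the highest of its 3 for 34 of 38 members (89.5%), where it was so for 34.6% of all genes tested. Mouse 319, fed Nts-/-, was the highest for 28 (73.7%, against 37.6% of all genes), and mouse 295, fasted Nts-/-, for 26 (68.4%, against 34.0%). Mouse 290, fasted Nts-/-, was the lowest for 33 (86.8%, against 34.3%). Members of one list in one liver are not independent of each other, so these are counts and not tests. The mean of the members' centred log2 values, in which 0 is a member's mean over 12 mice, was 0.0383 ± 0.123 in fed and 0.0173 ± 0.444 in fasted Nts+/+ livers and 0.00467 ± 0.262 in fed and -0.0603 ± 0.277 in fasted Nts-/- livers (SD, n = 3). The group means lay closer to each other than the SD of any group.

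**Figure D5:**
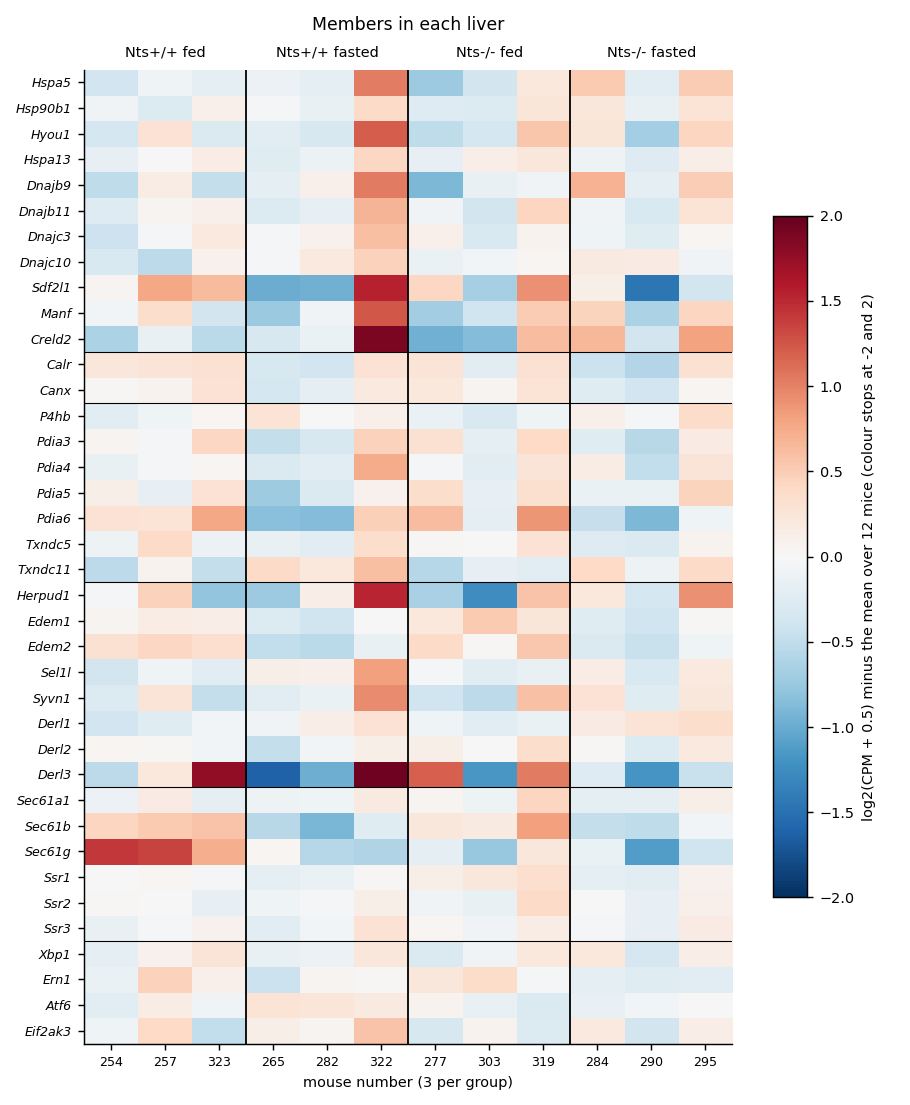
Log2(CPM + 0.5) of each of the 38 members in each liver, minus the member's mean over the 12 mice, as colours that stop at -2 and 2, with mice in columns by group and members in rows by role. The column of mouse 322 is red for most rows, and that of mouse 290 is blue for most.

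In the neighbouring pathways mouse 322 also stood above its group mates in the median, though by less. It was the highest of its group for 11 of 23 tested targets of PERK and ATF4, 14 of 29 genes of ER exit and retrieval and 23 of 41 other folding enzymes. The same held for 24 of 33 other genes of translocation, signal peptidase and glycosylation. It held for 18 of 32 other genes of ER-associated degradation and 10 of 18 other regulators of the unfolded protein response, beside 34.6% of all genes. Mouse 295 was the highest for 22 of 29 genes of ER exit and for 25 of 33 of translocation, signal peptidase and glycosylation, mouse 319 for 23 of these 33, and mouse 290 was the lowest for 24 of them. Over all genes mice 295 and 319 were the highest for 34.0% and 37.6%, and mouse 290 the lowest for 34.3%. Among targets of PERK and ATF4 mouse 295 was the highest for 7 of 23 and mouse 290 the lowest for 10. The median log2 ratio of mouse 322 to its group mates lay between 0.0756 and 0.196 over the 6 neighbouring lists, and between 0.239 for the translocon and 1.08 for the Hsp70 and Hsp90 class among the members.

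Markers of hepatocytes and of other cell types also differed in these livers. Hepatocyte markers were the highest of the group in mouse 319 for 10 of 12. They were the lowest in mouse 290 for 9 of 12 and in mouse 322 for 7 of 12. Endothelial markers were the highest in mouse 290 for 8 of 10 and in mouse 322 for 6, and the lowest in mice 319 and 295 for 7 each. Mouse 322 had the highest level of its group for 12 of 12 Kupffer cell and macrophage markers, with a summed level of 710 CPM against 492 and 433 CPM, but mouse 319 had it for 2 of 12 and mouse 290, where the members were low, for 9 of 12. Erythroid markers were the highest of the group in mouse 319 for 5 of 5 tested genes, in mouse 322 for 4 and in mouse 295 for 4, and the lowest in mouse 290 for 5. Their sums were 628, 491, 601 and 233 CPM in these mice. Plasma cell markers, for a cell type with much ER, were the highest of the group in mouse 322 for 8 of 10 tested genes and in mouse 319 for 6, although they summed to 527 CPM in mouse 322 and to 687 and 510 CPM in its group mates. In all mice 12 of 13 pancreas markers were under 1 CPM. The part of these cell types in the members' levels was not tested.

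Between fed and fasted livers, markers of several cell types moved too. In this contrast 16.8% of all genes were lower and 16.0% higher in fasted livers. Endothelial markers summed to 250 to 358 CPM in fed and 209 to 251 CPM in fasted livers. By the test 7 of 10 were lower and 1 higher. Stellate cell markers summed to 407 to 500 and 356 to 406 CPM, with 6 of 10 lower and 1 higher. Cholangiocyte markers summed to 34.7 to 51.0 and 14.2 to 30.1 CPM, with 1 of 5 lower. Kupffer cell markers summed to 547 to 940 and 433 to 809 CPM, with 5 of 12 lower. Of 12 hepatocyte markers 4 were lower and 2 higher, and 2 of 2 tested intestine markers were higher. Of 10 tested plasma cell and 11 lymphocyte markers 0 passed. Within Nts+/+ livers the Kupffer cell markers had a median log2 fold change of -0.686, with 4 of 12 lower (9.19% of all genes were). Within Nts-/- livers it was -0.017, with 0 of 12 called. Fewer cells of a type and less RNA per cell cannot be told apart in whole liver, and the part of these cells in the falls of Sec61b, Edem1, Edem2 and Pdia6 was not tested.

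No member passed the test between the labelled genotypes. In fasted livers 0 of 38 members and 0.0% of all genes passed in edgeR's test of Nts-/- against Nts+/+, and 685 genes, 1 of them a member, had an unadjusted *p* under 0.05. In fed livers 0 members and 0.0% of genes passed, and 876 genes had an unadjusted *p* under 0.05, 1 of them a member. For the difference in fasting response between genotypes 0 members and 0.0% of genes passed, and 663 genes with 1 member had an unadjusted *p* under 0.05. By DESeq2, 1 member passed in fed livers, 0 in fasted ones and 0 for the difference in response, counts given without the share of all genes.

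The member called by DESeq2 in fed livers was Sec61g. Its log2 difference, Nts-/- minus Nts+/+, was -1.50 (SE 0.34), with an adjusted *p* of 0.709 in edgeR and 0.0337 in DESeq2. The 3 fed Nts-/- livers, 2.17 to 4.83 CPM, were all below the 3 fed Nts+/+ livers, 7.05 to 11.6 CPM, as were those of 5.85% of all genes. Edem1 and Ssr1 were higher in all 3 fed Nts-/- livers, as 4.81% of all genes were. In fasted livers Atf6 was lower in all 3 Nts-/- mice, 57.1 to 63.3 CPM against 71.7 to 76.5 CPM (log2 difference -0.30, SE 0.12, adjusted *p* = 0.917 in edgeR). Such a pattern was found for 6.88% of all genes.

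The direction of the list between genotypes depended on single mice. In fasted livers 29 of 38 estimates of Nts-/- minus Nts+/+ were below 0, with a median of -0.125 on the log2 scale. Without mouse 322 7 of 38 were below 0 and the median was 0.189. Without mouse 290 16 of 38 were below 0, with a median of 0.0101. In fed livers 15 of 38 were below 0, with a median of 0.0353, and without mouse 319 these were 26 of 38 and -0.0915. These mice were picked as the highest or lowest of their groups for most members, so a shift without them follows from that choice. Omissions of the other mice are not given here.

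The rest of the pathway was examined through 6 further lists in the averaged fasting contrast. In it 16.0% of all genes rose and 16.8% fell. Of 41 other folding enzymes 13 fell (31.7%) and 2 rose (4.88%). The collagen chaperone Serpinh1 fell with a log2 fold change of -1.55 (SE 0.14, adjusted *p* = 4.44e-06), from a median of 12.5 to 4.43 CPM, and the thioredoxin-related membrane protein Tmx2 with -0.50 (adjusted *p* = 0.000205). The oxidase Ero1l, which recharges the isomerases, rose by 0.28 (adjusted *p* = 0.0337).

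Of 32 other genes of ER-associated degradation 12 rose (37.5%, against 16.0% of all genes) and 6 fell (18.8%, against 16.8%). Those that rose included each part of the complex that pulls substrates into the cytosol, the ATPase Vcp (log2 fold change 0.52, adjusted *p* = 0.000669) and its cofactors Ufd1l (0.56, adjusted *p* = 0.000207) and Nploc4 (0.54, adjusted *p* = 0.000263). Vcp had 275 to 319 CPM in fed and 386 to 474 CPM in fasted livers. Svip, a small inhibitor of this complex, fell with -0.96 (adjusted *p* = 6.36e-05), and the membrane ubiquitin ligase Rnf5 with -0.69 (adjusted *p* = 0.000356).

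Of 33 other genes of translocation, signal peptidase and glycosylation 5 rose (15.2%, against 16.0% of all genes) and 8 fell (24.2%, against 16.8%). Tram2, a translocon-associated protein, rose by 1.27 (SE 0.15, adjusted *p* = 3.76e-05), from 5.74 to 10.4 CPM in fed to 16.3 to 26.0 CPM in fasted livers. Stt3b, a catalytic subunit of oligosaccharyltransferase, rose by 0.35 (adjusted *p* = 0.00299), whereas its partners Ddost and Rpn1 fell, with -0.47 (adjusted *p* = 0.00645) and -0.49 (adjusted *p* = 0.00779).

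Of 29 genes of ER exit and retrieval 13 rose (44.8%, against 16.0% of all genes) and 0 fell (against 16.8%). Sec23a, a coat protein of the vesicles that leave the ER, rose by 0.70 (adjusted *p* = 8.07e-05), with 63.0 to 81.8 CPM in fed and 105 to 133 CPM in fasted livers. Sec13, of the same coat, rose by 0.53 (adjusted *p* = 0.000644), and Copb1, of the coat of returning vesicles, by 0.52 (adjusted *p* = 0.000576).

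Of 18 other regulators of the unfolded protein response 4 rose (22.2%, against 16.0% of all genes) and 2 fell (11.1%, against 16.8%), counts of few genes near the background. The membrane-bound transcription factors Creb3 and Creb3l3, the latter a fasting regulator in liver, rose by 0.68 (adjusted *p* = 0.000184) and 0.72 (adjusted *p* = 0.00189). Of the proteases that release such factors, Mbtps2 rose by 0.42 (adjusted *p* = 0.00632) and Mbtps1 fell with -0.29 (adjusted *p* = 0.0256). Of 23 targets of PERK and ATF4 7 rose (30.4%, against 16.0% of all genes) and 3 fell (13.0%, against 16.8%). The hormone Fgf21, also a PPARα target, rose by 2.96 (SE 0.30, adjusted *p* = 4.23e-05), from 0.869 to 4.21 CPM in fed to 18.2 to 25.4 CPM in fasted livers, and Trib3, a pseudokinase, by 1.60 (adjusted *p* = 0.000115). Nupr1 fell with -1.16 (adjusted *p* = 0.0302).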

How the data were processed

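Total RNA from snap-frozen livers of 12 mice was sequenced by the study. The authors deposited expected counts per gene (unit: estimated counts). Per the submitters' processing notes, the tools were Trimmomatic and RSEM and the build was GRCm38; versions and annotation are not given in the sources used here. The counts were rounded, genes with low counts were removed by filterByExpr, and 13812 of 48795 genes were tested in edgeR 4.0.16 (R 4.3.3) with TMM scaling, robust quasi-likelihood fits over all 4 groups and Benjamini-Hochberg adjustment over all genes tested. Totals ranged from 21999647 to 45273069. DESeq2 1.42.0 was an alternative, beside other scalings, filters, thresholds and leaving out each mouse. The test was tested on simulated data. No column of other samples was used (0). Levels per kilobase used transcript lengths of GENCODE vM39, without its coordinates. Promoters came from RefSeq.

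The members and lists were chosen with earlier results of these data known. All members could be named, in full where they passed in any contrast, with Hspa5, Xbp1 and the sensors. From each other list up to 3 genes in each direction with the smallest adjusted *p* could be named. The members of wide spread and mouse 322 were singled out after their values were seen. Each p-value tests a difference between group means against the spread between separate mice.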

Additional observations from a re-analysis of the deposited data

How the results depend on the processing

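The averaged fasting contrast, with 9 members called, gave 14 by DESeq2, 15 at an adjusted *p* under 0.10 and 1 when a log2 fold change of at least 1 in size was also required. Leaving out 1 mouse gave 6 (without mouse 277 or 284) to 12 (without mouse 322). Fasting in Nts+/+ livers, with 5 called, gave 2 at the fold threshold and 3 (without mouse 254) to 7 (without mouse 265) when 1 mouse was left out. Fasting in Nts-/- livers, with 4 called, gave 2 when only the mice compared were fitted, 6 at an adjusted *p* under 0.10, 0 at the fold threshold and 0 (without mouse 284) to 5 (without mouse 322) when 1 mouse was left out, with 1 without mouse 290 and 2 without mouse 277, 303 or 319. Nts-/- against Nts+/+ in fed livers, with 0 called by edgeR, gave 1 by DESeq2. The causes were not tested. The shares of all genes called under these settings are not given here, so these counts do not set the members apart from other genes. Sec61b, Edem2, Edem1, Sec61g, Derl1 and Txndc11 stayed under an adjusted *p* of 0.05 in the averaged contrast with each other tool, scaling, filter and omitted mouse (18 fits). Of these 6 only Sec61g reached a log2 fold change of 1 in size, with -1.03. That value averages -1.7 in Nts+/+ livers with a smaller fall in Nts-/- livers that did not pass the test. The estimated counts of Sec61g were not whole in all 12 mice. Fitting only the mice compared does not apply to the averaged contrast and to the difference in response. No paired analysis was possible because each mouse number names a single animal in 1 group. The lowest member, Derl3, reached 0.285 CPM in 1 liver, near the limit that a count of 0 allows, so its values are limited by depth.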
